A study of Drosophila melanogaster with 7 samples.

Results

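Among the sequenced DNA molecules of Drosophila S2 cells, 390 reads carried 3 or more replication forks, out of 27045 reads with any fork on the major chromosome arms (2L and 2R, 3L and 3R, chromosome 4 and X) in the 5 untreated pulse libraries. These molecules were chosen by a measured value, the number of leftward and rightward fork calls on a read, so that number is a description and supports nothing further. S2 is a cell line derived from Drosophila embryos, and cells from a pair of flasks labelled side by side were pooled. All 5 libraries came from cells without a drug that received 10 µM EdU and then 10 µM BrdU, both thymidine analogues, followed by 50 µM thymidine for 20 min. The control, sequenced on a MinION, and the 7 and 15 min replicates 1 and 2, sequenced on a PromethION, had 7 min of EdU and 15 min of BrdU. The 3 and 6 min replicates 3 and 4, also sequenced on a PromethION, had 3 min of EdU and 6 min of BrdU. Each pair of replicates had a batch of its own and so did the control, and batch and pulse scheme cannot be told apart in replicates 1 to 4. Whether the replicates were independent cultures is not stated in the labels, so a p-value over libraries reflects the spread among these libraries alone, part of which could be technical.

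Eukaryotic chromosomes replicate from many origins. At an origin the duplex opens and a pair of forks leaves in opposite directions, and where the rightward fork of one origin meets the leftward fork of the next, replication terminates. On a continuous stretch in which every fork is labelled, leftward and rightward forks therefore alternate, with an origin inside each diverging pair and a termination inside each converging pair. A fork that moves through both pulses leaves EdU first and then BrdU further along in its direction of travel, and the direction of the fork is read from that order. An origin that fires during the EdU pulse leaves 1 EdU segment shared by both forks, and an origin that fired earlier leaves an unlabelled gap between them. A termination during the BrdU pulse leaves 1 shared BrdU segment. Molecules with 3 or more forks show origins and terminations next to each other on the same chromosome copy, which reads with 1 fork cannot.

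The control held 30 such molecules, the 7 and 15 min replicates 1 and 2 held 139 and 169, and the 3 and 6 min replicates 3 and 4 held 20 and 32. They made up 1.88% of the reads with a fork in the control (95% Wilson interval 1.32 to 2.67%), 1.52% (1.29 to 1.79%) and 1.51% (1.3 to 1.75%) in replicates 1 and 2, and 0.735% (0.476 to 1.13%) and 1.33% (0.945 to 1.87%) in replicates 3 and 4. Intervals cover counting error only. The 3 and 6 min replicate 3 stood lowest, and its reads with 1 fork had the lowest median length, 27.2 kb. Among reads under 50 kb its share was 0.464%, above the 0.146 to 0.396% of the other libraries. From 50 to 100 kb it was 1.43%, within their range of 1.28 to 3.25%. The fork number that chose the molecules sets these shares, so differences between libraries are descriptions and were not tested. The mean over libraries was 1.4% ± 0.419 (SD, n = 5). The molecules carried 1237 forks, 4.05% of the 30573 forks in all. Of them 334 had 3 forks, 46 had 4, 9 had 5 and 1 had 6. Just outside the threshold lay 2681 reads with 2 forks, with a median mapped length of 70.8 kb against 91.6 kb for the reads with 3 forks.

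Read length went with membership in every library. Molecules with 3 or more forks had median mapped lengths of 112, 104, 94.8, 45.8 and 69.7 kb in the control and replicates 1 to 4. Reads with 1 fork had medians of 52.8, 50.8, 52.9, 27.2 and 33.0 kb in the same order. Over the pooled libraries, 0.33% of reads under 50 kb were members, 1.63% of those from 50 to 100 kb, 4.51% from 100 to 150 kb, 7.64% from 150 to 200 kb and 14.8% of the 115 reads of 200 kb or more. The shortest member was 15.0 kb and the longest 261 kb. Short reads nonetheless held 45 members under 50 kb.

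**Figure D1:**
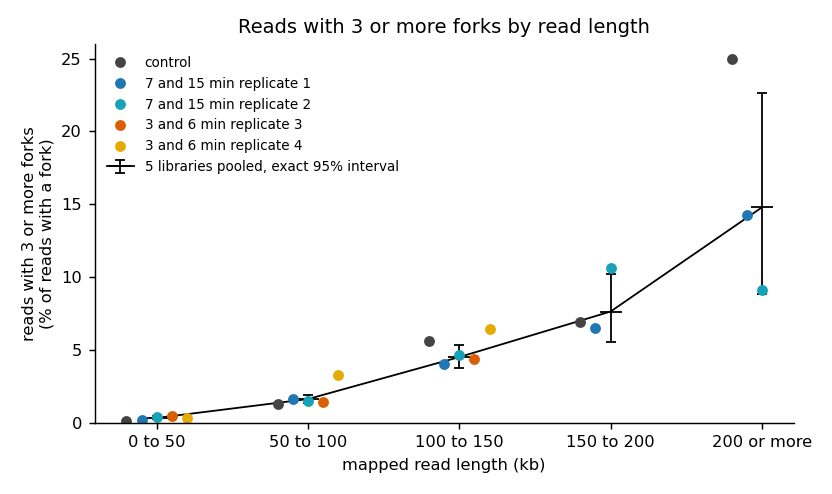
Share of reads with a fork that carried 3 or more forks (%), by mapped read length in kb. Coloured points are libraries with at least 20 reads in the bin, and black bars are the 5 libraries pooled with exact 95% intervals, which run from 0.33% below 50 kb to 14.8% at 200 kb or more.

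Among reads with an alignment of 100 kb or more, 21 of 292 in the control were members, 75 of 1477 and 75 of 1392 in replicates 1 and 2, and 3 of 77 and 6 of 100 in replicates 3 and 4. The shares were 7.19%, 5.08%, 5.39%, 3.90% and 6.00%. The mean of the 7 and 15 min replicates lay 0.285 percentage points above that of the 3 and 6 min replicates, and the schemes overlapped. The fork number that chose the molecules sets this share, so the difference is a description with no test. It was -0.767 points without replicate 3, -2.25 points with forks of caller version 4.0.3 alone, and 9.19 points on reads of 150 kb or more, of which the 3 and 6 min libraries had no member. The 9 long molecules of the 3 and 6 min libraries limit this comparison.

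All arms contributed. Members made up 1.38% of reads with a fork on 2L, 1.47% on 2R, 1.48% on 3L, 1.47% on 3R, 1.55% on 4 and 1.34% on X, and the exact 95% intervals of all 6 overlapped. Chromosome 4, the small heterochromatin-rich chromosome, contributed 4 molecules out of 258 reads (0.424 to 3.92%). Forward reads gave 185 members and reverse reads 205.

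Fork directions alternated on nearly all molecules. Of the 390 members 385 lay on 1 alignment, and on 376 of these, 97.7%, every neighbouring pair pointed in opposite directions. The alternating share was 30 of 30 in the control, 134 of 137 and 164 of 167 in replicates 1 and 2, 18 of 20 in replicate 3 and 30 of 31 in replicate 4. Read from left to right on the reference, 163 molecules had the order rightward, leftward, rightward and 159 the order leftward, rightward, leftward. The first kind shows a termination and then an origin, the other an origin and then a termination. Of the molecules with 4 forks, 25 began with a rightward and 20 with a leftward fork and alternated, and 1 did not alternate. The 9 molecules with 5 forks split into 5 alternating from a leftward fork, 3 alternating from a rightward fork and 1 ending in a pair of leftward forks. The molecule with 6 forks alternated throughout.

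On the 10 molecules with most forks the alternation ran over up to 5 neighbouring pairs. Molecule 1, from the 7 and 15 min replicate 2, was an 80.1 kb read at 3L 6083634 to 6163779 (dm6, positions counted from 1, as throughout) with 6 forks, and the only member with 3 origin calls. Its origins lay at 6100481 inside Ets65A, which encodes an ETS-domain transcription factor, at 6126596 inside l(3)mbn, and at 6147693 inside Cpr65Ax1, a cuticular protein gene. At all 3 the EdU segments of the sister forks were joined. Its terminations lay between them, one with a 9.62 kb gap centred at 6114605, also inside Ets65A, and one at 6136329 inside Lcp65Af, a larval cuticle protein gene, where the tracks met. The 6 tracks measured 10.2, 9.31, 7.18, 9.73, 11.4 and 10.5 kb from left to right. The longest of them lay beside the rightmost termination.

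Molecule 2, from the 7 and 15 min replicate 1, was the longest member, at 2R 3087333 to 3348321. Its leftmost termination call spanned 111 kb between a rightward and a leftward fork, the widest termination gap among members. Its rightmost fork had a track of 46.8 kb with a BrdU segment of 37.2 kb, against 12.4 to 24.2 kb for its 4 other tracks. Both of its origins, at 3259443 and 3294042, lay far from the nearest protein-coding gene, 68.4 kb from dpr21 and 69.8 kb from CG41242. Molecule 3, from the control, lay at X 14342671 to 14542967, and both its origins were inside dpr8, a member of the dpr family of immunoglobulin-domain cell surface proteins. One origin call was 8.60 kb wide with midpoint 14366203, and at the other, at 14422259, the tracks met.

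Molecule 4 lay at 2R 21035375 to 21222935 and had wide origin calls of 38.4 and 29.2 kb, the first centred inside CG34396 and the other inside Pu, the gene of GTP cyclohydrolase, and CG4286. Molecule 5, at 3L 17231766 to 17380782, had an origin at 17247551, 2.81 kb from CG7707, and an origin call centred at 17297041, 22.9 kb from ND-24L. Molecule 6, at 2L 22901927 to 23044859, was the one with a leftward pair, and its single origin call, 28.2 kb wide, was centred 2.69 kb from cta, a G protein subunit gene used in gastrulation. Molecule 7, at 3L 26468279 to 26580266, had origins at 26486199 and 26502849, 115 and 131 kb from CG42598, the protein-coding gene nearest to them. These 4 all came from the 7 and 15 min replicate 2.

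Molecule 8, from replicate 1 at X 20249508 to 20355388, had origins 5.51 kb from Inx6, an innexin of gap junctions, and 1.77 kb from CG1504. Molecule 9, from the control at 3R 23986215 to 24089708, had a 13.2 kb origin call centred inside Miro, a mitochondrial GTPase, and an origin 0.298 kb from Pisd, which makes phosphatidylethanolamine in mitochondria. Molecule 10, from replicate 2 at 2R 23786933 to 23886410, had origins at 23841731 inside shu, a piRNA pathway factor, and at 23854429 inside bgcn, which acts in germ cell differentiation. At all 4 of its calls the tracks met, and between its second origin and the next termination lay a track of only 2.01 kb. Its terminations were 5.39 kb apart, the closest of all members.

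**Figure D2:**
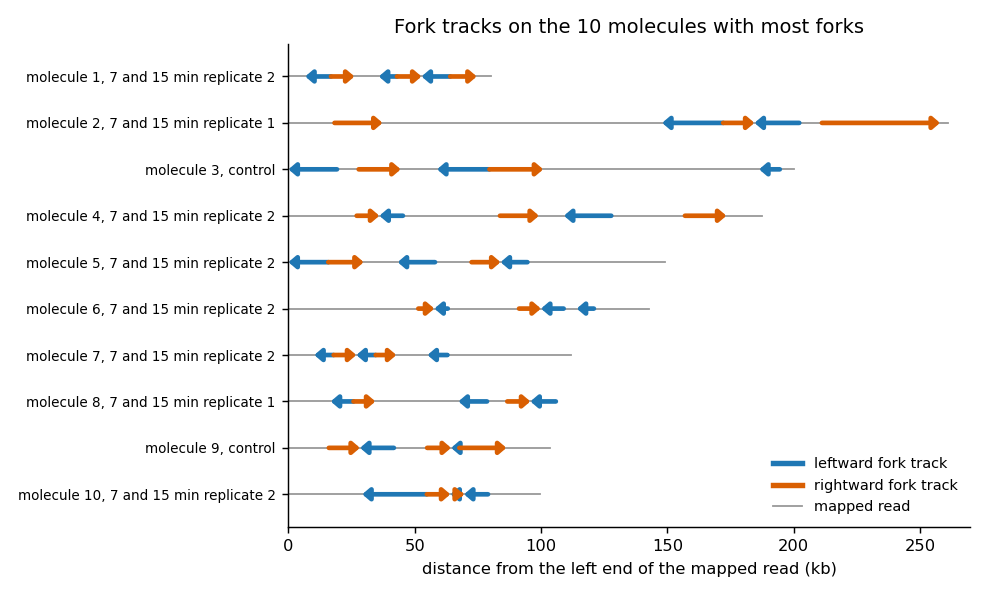
Fork tracks on the 10 molecules with most forks, drawn to scale along each read in kb from its left end. Arrows are fork tracks, blue leftward and orange rightward, and 9 of the 10 alternate, while molecule 6 ends in a pair of leftward forks.

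Only 9 neighbouring pairs on members pointed the same way, 6 leftward and 3 rightward, out of 842 pairs. They lay 5.13 and 12.6 kb apart in replicate 3, 53.3 kb apart in replicate 4, 7.07, 16.7 and 80.2 kb apart in replicate 1 and 5.17, 13.7 and 98.9 kb apart in replicate 2, and the control had none. No EdU or BrdU segment was called between the forks of any of the 9 pairs, and no origin or termination call lay there. Same-direction pairs made up 0% of member pairs in the control, 1.01% and 0.815% in replicates 1 and 2, and 4.55% and 1.54% in replicates 3 and 4. On reads with 2 forks they made up 1.21%, 1.32%, 1.11%, 0.433% and 0% in the same order. The difference was 0.767 ± 2.12 percentage points (SD, n = 5; exact two-sided sign-flip permutation test, p = 0.562, higher on members in 2 of 5 libraries), within the spread between libraries. Without replicate 3 it was -0.0688 points. Sign-flip tests over 5 libraries cannot give a p below 0.062, so no result tested this way can pass 0.05.

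Origin and termination calls on these molecules followed the order of forks exactly. Members held 412 diverging pairs, each with exactly 1 origin call that filled the gap between the forks, and 421 converging pairs, each with exactly 1 termination call. None of the 1966 EdU and BrdU segments on members lay outside a fork track (0 segments). The same held on reads with 2 forks, with 1055 origins for 1055 diverging and 1562 terminations for 1562 converging pairs, so calls per pair differed by 0. The calls are therefore another way of writing the fork order and give no separate evidence for it. Most members, 323, had 1 origin and 1 termination. Another 26 had 1 origin between 2 terminations, 20 had 2 origins around 1 termination, 8 had 2 of each, 1 had 3 origins and 2 terminations, 8 had a termination alone and 4 an origin alone. In all, members held 27.2% of the 1513 origin calls and 21.2% of the 1984 termination calls of these libraries, on 1.44% of the reads with a fork. A call needs a pair of forks, which the 23974 reads with 1 fork lack, so these shares follow from the rule. The origin total includes 45 calls of replicate 2 whose reads had no fork call.

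Members were balanced between both kinds of event, by their alternation. Diverging pairs were 48.9% and converging pairs 50.0% of their neighbouring pairs, against 39.9% and 59.1% on reads with 2 forks.

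Neighbouring tracks often met with no gap. At such a call the tracks ended on the same base, and the call lay at the middle of 1 shared segment, of EdU at all 217 gapless origins and of BrdU at all 291 gapless terminations (within 1 base). The caller had thus split the segment evenly between both forks, and the deposited segment length of each such fork covers only its own side. The shared segments had a median of 4.44 kb at origins and 5.91 kb at terminations. On reads with 2 forks the medians were 4.43 and 5.91 kb.

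At origins, tracks met in 13 of 34 diverging pairs of the control, 76 of 143 and 93 of 182 in replicates 1 and 2, and 12 of 21 and 23 of 32 in replicates 3 and 4. These are 38.2%, 53.1%, 51.1%, 57.1% and 71.9%. On reads with 2 forks the shares were 44.4%, 30.7%, 41.7%, 51.1% and 56.6%. Members were higher in 4 of 5 libraries, by 9.39 ± 10.7 percentage points (SD, n = 5; exact two-sided sign-flip permutation test, p = 0.188), and lower in the control. On reads of 100 kb or more the difference was 18.5 ± 19.6 points (p = 0.25 in the same exact test), with 49.4% against 9.09% in replicate 1 and 42.0% against 19.3% in replicate 2, and with 10 or fewer pairs on each side in the 3 and 6 min libraries. A read can hold more forks where they lie close together, so the share of joined calls and the gaps are not independent of how the molecules were chosen.

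At terminations, tracks met in 18 of 34 converging pairs of the control, 98 of 151 and 136 of 183 in replicates 1 and 2, and 19 of 21 and 20 of 32 in replicates 3 and 4. The shares were 52.9%, 64.9%, 74.3%, 90.5% and 62.5%, against 63.0%, 70.4%, 74.3%, 89.4% and 62.5% on reads with 2 forks. The difference was -2.90 ± 4.75 points (SD, n = 5; exact two-sided sign-flip permutation test, p = 0.375). Replicates 2, 3 and 4 each lay within 1.04 points of their reads with 2 forks.

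**Figure D3:**
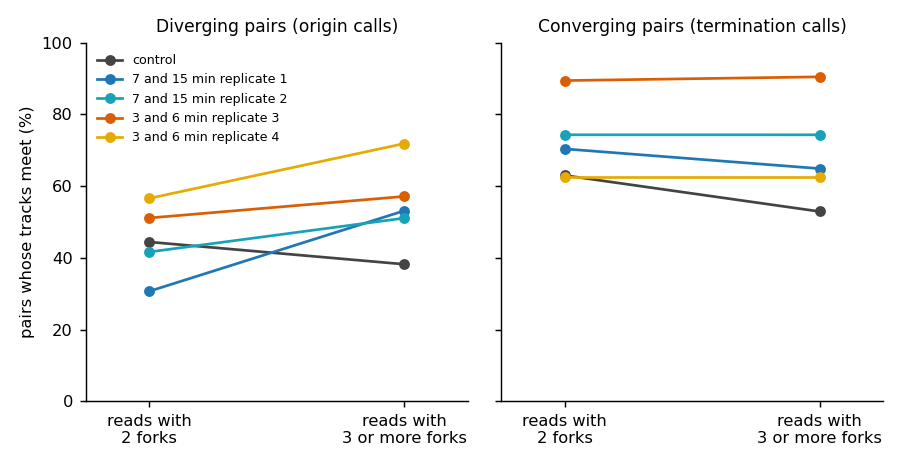
Share of neighbouring pairs whose tracks meet with no gap (%), on reads with 2 forks and on reads with 3 or more forks, one line per library. For diverging pairs 4 of 5 lines rise, for example from 30.7% to 53.1% in the 7 and 15 min replicate 1, and for converging pairs the lines stay nearly level or fall.

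Where tracks did not meet, origin gaps on members had medians of 29.7, 24.9, 18.5, 22.6 and 18.4 kb in the control and replicates 1 to 4, from 3.26 to 119 kb over 195 pairs. Termination gaps were 15.7, 15.8, 12.5, 21.5 and 10.6 kb in the same order, from 3.05 to 111 kb over 130 pairs, with only 2 pairs in replicate 3. Against reads with 2 forks the origin gap differed by -0.405 ± 5.46 kb and the termination gap by 3.09 ± 6.45 kb (SD, n = 5 for each; exact two-sided sign-flip permutation tests, p = 0.812 and 0.375), both within the spread between libraries. The origin difference was negative in the control and replicates 1 and 2 and positive in replicates 3 and 4. It was 1.31 kb without replicate 2 and 0.514 kb without replicate 1, and on reads of 100 kb or more on both sides it was -18.9 ± 14.7 kb (SD, n = 5; p = 0.12 in the same exact permutation test). The termination difference of replicate 3, 14.4 kb, rested on its 2 pairs, and without that library the mean was 0.274 kb. Gaps include diverging forks that were already far apart when the EdU pulse began, so they are distances at labelling and not distances between origins. Converging forks with a gap shared no BrdU segment. Such a termination call marks the stretch between them and not a place where they were seen to meet.

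Within members, median gaps over all pairs were 12.8 kb for diverging and 0 kb for converging pairs in the control, and 0 kb for both in the other 4 libraries. Their difference was -2.56 ± 5.72 kb (SD, n = 5; exact two-sided sign-flip permutation test, p = 1) and rested on the control alone. Among pairs with a gap, an alternative added later, converging gaps were shorter in 5 of 5 libraries, with a mean difference of -7.60 ± 4.67 kb (SD, n = 5; exact two-sided sign-flip permutation test, p = 0.062). The same-direction gaps had medians of 16.7, 13.7, 8.88 and 53.3 kb in replicates 1 to 4. Their difference from either other kind was 23.1 ± 20.4 kb (SD, n = 4 libraries, exact two-sided sign-flip permutation test, p = 0.12, the smallest that 4 libraries allow). As both other medians were 0 kb in these libraries, it equals the same-direction median. No same-direction pair was gapless, so its sign was fixed and the test decides nothing. Diverging pairs with a gap had medians of 24.9, 18.5, 22.6 and 18.4 kb, above the same-direction median in replicates 1 to 3 and below it in replicate 4. Without replicate 4, whose value was 1 pair, the difference was 13.1 kb.

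Because origins and terminations sat side by side, 443 distances from an origin call to the neighbouring termination call could be measured on single molecules. In 163 of them tracks met at both ends. In the others the midpoint of an unlabelled gap stood for the position at one end or both, which is an inferred position. A joined call is an inferred position too, since it was set at the middle of a shared segment. The median from midpoint to midpoint was 20.9 kb in the control (38 distances), 21.7 kb (155) and 15.4 kb (196) in replicates 1 and 2, and 10.1 kb (22) and 11.3 kb (32) in replicates 3 and 4. Over all libraries it was 16.6 kb, with a range of 1.98 to 84.9 kb, and 24.8% of distances were under 10 kb. Both 3 and 6 min libraries lay below the 3 libraries with longer pulses. Such a distance is bounded by the read and includes the labelled track itself, so pulse length enters it directly.

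The distance depended on the kind of call at its ends, as its construction implies. Where tracks met at both ends, so that the whole distance was 1 labelled track, it had a median of 8.81 kb over 163 distances, and 56.4% were under 10 kb. Such distances made up 36.8% of all, from 18.4% in the control to 50.0% in replicate 3. Where the origin had a gap and the termination did not, the median was 20.8 kb over 142 distances, and in the opposite case 20.9 kb over 70. With a gap at both ends it was 36.2 kb over 68. The shortest distances, of 1.98 kb in replicate 3, 2.01 kb in replicate 2 and 2.35 kb in replicate 4, were single tracks between joined calls.

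**Figure D4:**
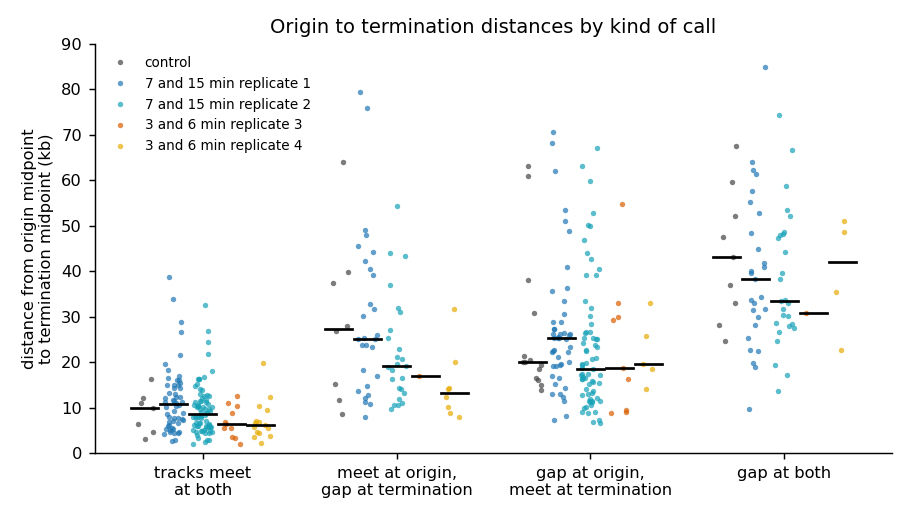
Distance in kb from the midpoint of an origin call to the midpoint of the neighbouring termination call on the same molecule, by whether the tracks meet or leave a gap at each end. Points are single distances, coloured by library, and black bars are library medians. Over all libraries the medians were 8.81 kb where tracks meet at both ends and 36.2 kb with gaps at both.

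On 29 molecules 2 or more origins were called, giving 30 distances between neighbouring origins, each with exactly 1 termination between them. They included 4 from the control, 8 and 16 from replicates 1 and 2, 2 from replicate 3 and none from replicate 4. Library medians were 40.9, 42.8, 28.2 and 29.4 kb. The termination lay between 0.260 and 0.831 of the way from the left to the right origin, with a median of 0.510, and 22 of the 30 lay in the central part of the interval, at 1/3 to 2/3 of it. Neighbouring terminations gave 35 distances with a median of 35.5 kb, from 5.39 kb to 92.0 kb, and the origin between them lay at a median of 0.554 of the interval. The longest, in the control and in replicate 1 on molecules 3 and 2, were 92.0 and 91.9 kb. None of these positions lay outside 0.260 to 0.865 of its interval. Each side of the inner call must hold a fork track, and a gapped call is placed at its gap midpoint. Central positions are thus partly built in, and where forks meet is not read from them. Both outer calls were gapless in 9 of the 30 origin intervals and 17 of the 35 termination intervals.

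Track lengths were set against those of other forks on reads of the same minimum length. On reads of 100 kb or more, median tracks on members were 12.8, 15.0, 14.05, 7.36 and 9.23 kb in the control and replicates 1 to 4. On reads of that length with 1 or 2 forks they were 18.0, 17.1, 19.3, 8.92 and 9.65 kb. Members were lower in 5 of 5 libraries, with a mean difference of -2.92 ± 2.19 kb (SD, n = 5; exact two-sided sign-flip permutation test, p = 0.062, the smallest possible). Over 4 or more forks the difference was -5.18 ± 2.14 kb in the 4 libraries with such reads. Track length is not independent of the rule, since shorter tracks leave room for more of them. A track also ends where it meets another. Of long member forks, 39.5% met another track at a termination and 19.9% at an origin (means over libraries). On long reads with 1 or 2 forks these shares were 15.8% and 1.46%. Tracks without such joined ends were not compared, so the test does not separate track length from joining.

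EdU segments on these long members had a mean of library medians of 4.73 ± 1.29 kb, against 5.74 ± 1.92 kb on reads with 1 or 2 forks, a difference of -1.0 ± 0.899 kb in 4 of 5 libraries (SD, n = 5; exact two-sided sign-flip permutation test, p = 0.12). Leaving out split segments it was -0.921 ± 0.812 kb. BrdU segments measured 5.03 ± 1.76 kb against 6.55 ± 2.85 kb, a difference of -1.52 ± 1.58 kb in 5 of 5 libraries (SD, n = 5; exact two-sided sign-flip permutation test, p = 0.062). However, 39.5% ± 7.89 of the BrdU segments on long members were split at a termination, against 15.8% ± 6.19 on reads with 1 or 2 forks (SD, n = 5). The share was 0% on long reads with 1 fork and 43.0% ± 15.7 on those with 2 forks. Leaving split segments out, an alternative added once the data had been seen, the BrdU difference was -0.143 ± 0.863 kb (p = 0.875 in the same exact permutation test). That value depends on the reads compared. Against long reads with 2 forks alone, unsplit BrdU segments were 6.89 ± 2.55 kb on members and 7.92 ± 3.23 kb on those reads. Members were lower in all libraries but replicate 4, and this was not tested.

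Alternating molecules with 3 forks allow sister forks of 1 origin to be compared when only one of them had a termination called ahead of it. The middle fork faced the converging fork, and the outer sister faced the read end. Over 322 molecules the outer track was longer in 12 of 24 in the control, 58 of 115 and 102 of 140 in replicates 1 and 2, and 9 of 15 and 17 of 28 in replicates 3 and 4. The median outer minus middle difference in track length was -0.163, 0.0760, 2.25, 0.620 and 0.930 kb, with a mean of 0.743 ± 0.948 kb (SD, n = 5; exact two-sided sign-flip permutation test, p = 0.188). With outer forks that ended at least 5 kb inside the read it was 1.97 ± 1.28 kb, with p = 0.062 in the same exact test. Pooled over libraries, the sign went with the kind of termination. In the 220 molecules where the middle track met the converging one, the outer track was longer in 159, by a median of 2.77 kb, and in the 102 with a gap it was longer in 39, with a median difference of -1.29 kb. Outer tracks ended within 5 kb of the read end in 51.2% of these molecules.

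The BrdU segment of the outer sister was longer in 5 of 5 libraries, by 0.681, 0.594, 2.00, 1.13 and 0.591 kb, a mean of 0.999 ± 0.604 kb (SD, n = 5; exact two-sided sign-flip permutation test, p = 0.062). A split segment covers only its own side, so this sign is partly built in. The test therefore does not decide which sister had the longer segment. The BrdU difference, too, went with the kind of termination. In the 220 molecules where the middle track met the converging one, and its BrdU segment was therefore a split one, the outer segment was longer in 167, by a median of 2.54 kb. In the 102 molecules with a gap at the termination it was longer in 37, with a median difference of -0.954 kb. Over libraries the gapped molecules gave -0.909 ± 0.941 kb, the opposite sign (exact two-sided sign-flip permutation test, p = 0.12), with values of -0.381, -1.82, -0.619, -1.95 and 0.220 kb, of which replicate 3 had 2 molecules. Outer tracks ended within 5 kb of the read end in 51.2% of all 322 molecules, and a segment there may be cut off. With outer forks ending at least 5 kb inside the read, over both kinds of termination, the difference was 1.63 ± 1.12 kb. Its p was 0.062 in the same exact sign-flip permutation test (n = 5). The gapped molecules were not compared by this distance.

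**Figure D5:**
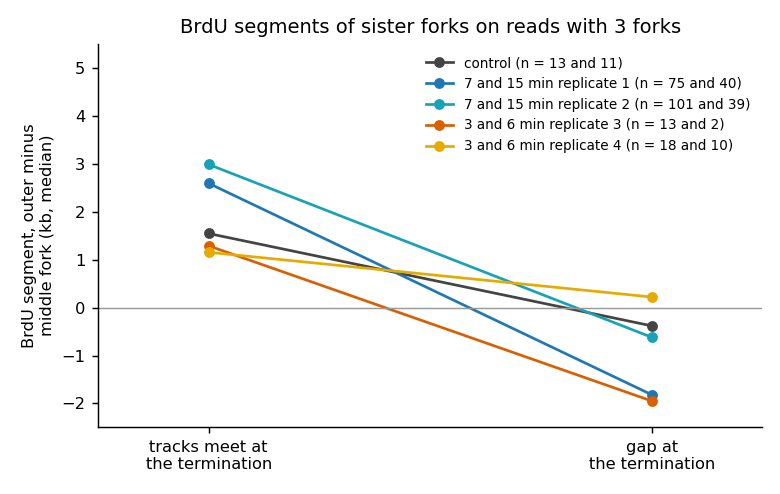
Median difference in BrdU segment length in kb between the outer and the middle sister fork on alternating reads with 3 forks, by whether the tracks meet or leave a gap at the termination. All 5 libraries lie above 0 where tracks meet, and 4 of 5 lie below 0 with a gap, the exception being the 3 and 6 min replicate 4 at 0.220 kb.

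The caller gives a stall score from 0 to 1 to forks that it can judge, and codes below 0 to the rest. Of the 842 member forks at a termination 30.3% had a score and 69.1% had the code -1, the same share as converging pairs whose tracks met, and no fork elsewhere on members had that code. Of the 395 member forks at no termination 41.5% were scored and 58.5% had the code -3. On reads of 100 kb or more, a score of at least 0.5 was given to 9 of 37 scored member forks in the control, 22 of 105 and 13 of 88 in replicates 1 and 2, and 0 of 4 and 4 of 12 in replicates 3 and 4. The shares were 24.3%, 21.0%, 14.8%, 0% and 33.3%, against 27.5%, 19.4%, 19.7%, 9.52% and 41.7% on reads with 1 or 2 forks. The difference was -4.89 ± 4.40 points (SD, n = 5, lower in 4 of 5; exact two-sided sign-flip permutation test, p = 0.12). It was 15.5 points on reads with 4 or more forks and 2.96 points on reads of 150 kb or more, and with a score of at least 0.8 it was -0.495 points. The 3 and 6 min libraries had only 4 and 12 scored forks, and replicate 1 went the other way, by 1.51 points.

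Origins on members were set against genes with a table of gene spans without strand. A protein-coding gene started or ended within 1 kb of their midpoint in 17 of 34 in the control, 53 of 143 and 65 of 182 in replicates 1 and 2, and 13 of 21 and 8 of 32 in replicates 3 and 4. The shares of 50.0%, 37.1%, 35.7%, 61.9% and 25.0% compare with 47.6%, 45.6%, 45.2%, 40.9% and 43.4% for origins on reads with 2 forks. The difference was -2.61 ± 15.1 points (SD, n = 5; exact two-sided sign-flip permutation test, p = 0.75), within the spread between libraries. Without replicate 4 it was 1.34 points, and with origins pooled over libraries -7.06 points. Gapless origins were placed at the middle of a shared EdU segment, with a median length of 4.44 kb on members. Over all libraries 30.0% of gapless member origins lay near a gene end, against 42.3% of gapless origins on reads with 2 forks. Of gapped origins 46.7% did in both sets. For gapless origins the difference over libraries was -5.49 ± 16.0 points. The share of all positions on the arms within 1 kb of a gene end was not computed, so these shares alone show no association with gene ends.

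Recurrence was counted as the share of member origins with an origin of another untreated library within 5 kb. This share was 23.5% in the control, 20.3% and 13.7% in replicates 1 and 2, and 23.8% and 21.9% in replicates 3 and 4. On reads with 2 forks they were 23.8%, 23.1%, 18.0%, 26.1% and 25.5%. Members were lower in 5 of 5 libraries, with differences from -0.28 to -4.25 points and a mean of -2.65 ± 1.52 points (SD, n = 5; exact two-sided sign-flip permutation test, p = 0.062, the smallest possible). In the control, with 8 of 34 against 15 of 63, the difference was smaller than 1 origin. With gapless origins alone the mean was -7.57 ± 9.92 points (p = 0.25 in the same exact permutation test). The share for positions placed at random on the arms was not computed, so these shares alone do not show that origins recur.

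Among members themselves, 397 tiles of 10 kb held an origin, of which 10 held origins of 2 libraries and none (0 tiles) of 3 or more. That is 2.52% of the tiles, against 79 of 925 tiles, 8.54%, with 2 or more libraries for origins of reads with 2 forks. The sets hold 412 and 1055 origins, so nothing is read from these shares. The number of shared tiles expected by chance was not computed, and the tiles named here are descriptions. At 3R 16680001 to 16690000, an origin of the control and one of replicate 1 had midpoints 0.377 kb apart, with a mean of 16684037 inside Ubx, a Hox gene of the bithorax complex. At 3R 10720001 to 10730000, origins of replicates 2 and 3 had midpoints 0.197 kb apart, 9.41 kb from CG4073. At 3R 29250001 to 29260000, origins of replicates 2 and 4 were 0.363 kb apart and lay 2.02 kb from CG45544. In each of these 3 tiles one of the calls was gapless and the other gapped. At 3L 23480001 to 23490000 both calls, of replicates 2 and 3, were gapless and 2.88 kb apart, 68.1 kb from AGO3, an Argonaute gene of the piRNA pathway.

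At 3R 14480001 to 14490000 both calls had short gaps, of 4.51 kb in replicate 1 and 7.2 kb in replicate 2, and their midpoints were 1.17 kb apart, 1.54 kb from cv-c. At 3L 10990001 to 11000000 the calls of replicates 1 and 2 had midpoints 2.46 kb apart, with their mean inside klu, a zinc finger transcription factor gene. At 2L 9940001 to 9950000 the midpoints of the control and replicate 1 were 4.25 kb apart, with their mean inside CG5853, and one of the calls was 13.1 kb wide. At 2L 16670001 to 16680000 those of replicates 1 and 4 were 2.29 kb apart, with their mean inside her, a sex determination gene, although one of the calls was 70.8 kb wide. The remaining tiles were 2L 14020001 to 14030000, 1.75 kb from hll, and 3R 18060001 to 18070000, 12.2 kb from htl, an FGF receptor gene, with midpoints 3.97 and 6.58 kb apart.

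Forks on members filled much of each molecule. From the outermost end of the leftmost to that of the rightmost fork, members on 1 alignment spanned medians of 75.3, 64.2, 49.8, 26.9 and 32.7 kb in the control and replicates 1 to 4. Tracks covered a median of 42.0% of the read over all libraries and the span 64.2%. In 255 of 385 members, 66.2%, an outermost track ended within 5 kb of an end of the read, from 58.1% in replicate 4 to 85.0% in replicate 3, so the number of forks on the underlying chromosome stretch is a lower bound for most of them.

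The other 5 members had their forks spread over 2 alignments of 1 read, 2 each in replicates 1 and 2 and 1 in replicate 4. In each of them 2 forks lay on one alignment and 1 on the other. In the 3R member of replicate 1 the alignments overlapped, at 8786157 to 8877164 and 8826785 to 8917565, and so did its rightward forks, at 8854304 to 8864090 and 8852447 to 8861206, so its 3 calls may include 1 stretch mapped 2 times. The alignments of the X member of that replicate overlapped as well, but its forks did not. Pairs across alignments were not formed, so these reads entered only counts of members and pairs within an alignment.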

How the data were processed

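Members were counted as the fork calls per read name in each library, on the 6 arms. The members, comparisons and named regions were chosen with earlier results of these data known. Per the file headers, the calls came from forkSense in DNAscent 4.0.1 or 4.0.3. The submitters' processing notes name minimap2 2.24, SAMtools 1.10 and dm6. The deposited files give other values, namely coordinates and lengths in bp, and the stall score of the authors. In the 7 and 15 min replicate 2, 45 origin calls had a read name absent from its fork calls, so further members of that library may be uncounted. The HU and gradient libraries were not used. The control and replicates 1 to 4 had 1836, 10277, 12745, 2999 and 2716 fork calls on the arms. Version 4.0.3 made 7.08% and 11.1% of member forks in replicates 1 and 2, 0% in the control and 100% in replicates 3 and 4.

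From these, neighbouring forks of 1 alignment were ordered by track midpoint, and a gap is the distance between facing track ends. Comparisons used 1 value per library, with exact sign-flip permutation (two-sided) over libraries. A permutation test planned between pulse schemes was run, and its p is left out because the fork number that chose the members sets the share it compares. Named molecules are the 10 members with most forks (longer reads first) and all with 3 or more origins, and named tiles are those with member origins of 2 or more libraries. Genes are the protein-coding genes of a RefSeq table (Release 6 plus ISO1 MT, the release of dm6; 13911 on the arms) that hold the midpoint or lie nearest. Scripts ran in Python 3.11.15 (scipy 1.17.1, pandas 2.3.3, numpy 2.4.6, matplotlib 3.10.9), and the pairing and tests were tested on simulated reads. Comparisons of joined calls, of gapped pairs, of sister forks, of gene ends and of recurrence were added after the data were seen. Alternatives left out each library, asked for 4 or more forks, pooled libraries, used all contigs, other read lengths or stall thresholds, or merged near same-direction forks.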

Additional observations from a re-analysis of the deposited data

Results flagged for a closer look

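In 2 of 25 values compared over libraries 1 library stood apart from the other 4, where chance gives about 1 in 20 for continuous values, a rate that need not hold for the first of these, with 4 libraries at exactly 0. The control's converging gap was 12.8 kb shorter than its diverging gap, a difference of -12.8 kb against 0 kb in the other 4 libraries. In the 3 and 6 min replicate 3, gapped converging pairs of members exceeded those of reads with 2 forks by 14.4 kb, on 2 pairs.

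In 2 comparisons with reads of 2 forks, both 7 and 15 min replicates moved one way and both 3 and 6 min replicates the other. For the share of same-direction pairs the 7 and 15 min mean was lower by 3.13 percentage points (-3.13), and for the median gap of gapped diverging pairs it was lower by 10.3 kb (-10.3). Replicates 3 and 4 had only 2 and 1 same-direction pairs on members, and 9 gapped diverging pairs each. These differences between schemes were not tested, and batch and scheme cannot be told apart.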

How the results depend on the processing

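Of the alternatives computed, 145 values kept their direction, 11 changed sign and 1 was counted apart. That value, the difference between schemes pooled over libraries, kept its sign but had no SD to set its shift against. Another 18 concern calls per pair, which were 0 throughout, and the converging minus diverging gap became 0 kb in 2 settings, without the control and pooled. The designs cannot pass 0.05, so p-values say nothing about stability here. Leaving out 1 library at a time gave ranges of -0.0688 to 1.26 points for same-direction pairs, -0.767 to 1.34 points for the difference between schemes, -2.15 to 1.31 kb for gapped diverging gaps and -8.51 to 1.34 points for origins near gene ends, so the sign of these 4 was not settled. The difference between schemes was also 0.144 points pooled over libraries and -2.25 points with caller version 4.0.3 alone. With 4 or more forks on a read, the same-direction minus diverging gap was -2.82 kb (2 libraries), the stall difference 15.5 points and the gapped diverging gap difference 2.74 kb. The stall difference was 2.96 points on reads of 150 kb or more (3 libraries), and the sister BrdU difference was -0.909 kb at gapped terminations. Members minus reads with 2 forks for joined origins ranged from 2.34 points with 4 or more forks to 18.5 points on reads of 100 kb or more. The cause of these changes was not tested. Members were compared with other reads within each library. Between pulse schemes, no paired analysis was possible because the groups compared share fewer than 2 replicate numbers. Depth limits the control and the 3 and 6 min replicates 3 and 4 most, with 30, 20 and 32 members.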
